A study of Mus musculus with 10 samples.

Results

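Open chromatin near the collagen genes was followed in the mouse cochlea over the first postnatal days. The collagen genes were the protein-coding genes whose symbol has the form Col, a number, a and a number. Of 21887 protein-coding genes in the gene table, 44 met this rule, and 43 of them had at least 1 open region. Col10a1, the collagen of hypertrophic cartilage, had none. Peaks that overlapped by at least 1 bp in the lists of the 3 ages were merged into 64911 regions. Of these, 59260 lay within 100 kb of a protein-coding gene and were given to the nearest such gene, and 320 of them belonged to collagen genes.

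The assay was ATAC-seq, in which a transposase cuts and tags accessible DNA. The nuclei came from CD1 mice, an outbred stock, aged 2, 5 or 8 postnatal days (P2, P5 and P8), with 3, 3 and 4 animals, in a design meant to find regulatory elements in use during this development. No treatment or altered allele is named for any group. Both cochleae of an animal were combined and the labels name no sort, so each library held nuclei of the whole dissected tissue. The values used here are 1 list of peaks per age, with no list per animal. A difference between ages therefore has no replicate check, no p-value was computed, and the Wilson 95% intervals below cover counting error only. Fewer nuclei of a cell type and less accessible chromatin per nucleus cannot be told apart in such tissue.

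Collagens are proteins whose chains are wound into a triple helix. Fibrillar collagens form the tensile fibrils of bone, cartilage and connective tissue, and types IX and XI sit on and in the cartilage-type fibrils, which the tectorial membrane of the cochlea shares. Type IV collagen makes the network of basement membranes, type VI forms beaded filaments around cells, and transmembrane collagens are anchored in the cell surface. Mutations in genes of types II, IV, IX and XI are known to impair hearing.

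The 3 lists, for P2, P5 and P8, held 52085, 47683 and 43878 peaks, and their lowest ranking values, on the −log10 p-value scale, were 19.5, 13.5 and 11.4, so both length and cutoff differed between ages. Depth is unknown because the lists hold no read counts. The labelled tissue was checked against genes that mark its cells. Of 11 markers of sensory and supporting cells, 10, 10 and 11 had an open region at P2, P5 and P8, and of 8 fibrocyte and otic mesenchyme markers 8, 7 and 8 had one. Among all genes 70.2%, 68.2% and 66.5% had a region. Markers of neurons and glia (8, 7 and 7 of 8) and of skeletal muscle (4, 3 and 3 of 4) had regions as well, so the presence of a region does not single out a cell type. Tyr, a melanocyte gene used as a marker of the stria vascularis, the pericyte gene Rgs5, the cartilage gene Snorc, and the blood genes Hbb-bt and Gata1 had none at any age.

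Open regions of the collagen genes were fewer at each later age. The P2 list had 256 of them, the P5 list 209 and the P8 list 175, and counts below keep this order of ages. From P2 to P8, 117 regions were lost, meaning called at P2 and not at P8, 36 were gained, meaning called at P8 and not at P2, and 139 were called at both and are termed kept. Of the 292 collagen regions called at either age, 40.1% (95% interval 34.6 to 45.8) were lost and 12.3% (9.04 to 16.6) gained, beside 27.3% lost and 13.8% gained among all regions near a gene. Losses thus lay above the share over all genes, while gains lay close to it. Expressed per list, 45.7% of the collagen regions called at P2 (39.7 to 51.8) were no longer called at P8, against 31.7% of the P2 regions of all genes.

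Both intervals of age showed the same balance. From P2 to P5, 87 collagen regions were lost and 40 gained, or 29.4% and 13.5% of those called at either age, beside 20.8% and 12.5% over all genes. From P5 to P8, 74 were lost and 40 gained, or 29.7% and 16.1%, beside 18.8% and 12.7%. These steps share the P5 list. Regions called at every age made up 38.4% of the collagen regions (33.3 to 43.9) and 51.9% of all regions near a gene. Regions called only at P2 made up 22.2% and 15.8%.

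Counted by gene, 27 collagen genes had more lost than gained regions from P2 to P8, 6 had more gained than lost, and 10 had equal numbers. A net loss was thus found in 62.8% of the collagen genes with regions, beside 38.2% of all genes, and a net gain in 14.0%, beside 13.9%. Collagen genes also held more regions than most, with a median of 6 per gene against 2 over all genes, so a gene in this family had more regions that could be lost. When the top 43878 peaks of each list were used, collagen regions numbered 207, 192 and 175, with 80 lost and 48 gained. Losses were then 38.6% of the P2 regions (32.3 to 45.4), against 24.1% over all genes.

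**Figure D1:**
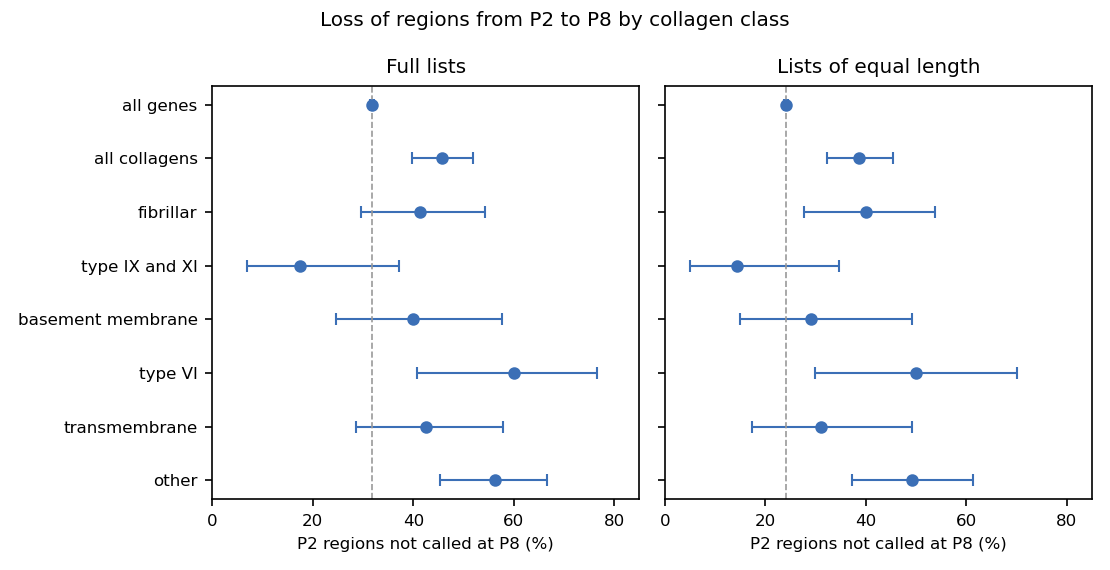
Share of P2 regions that were not called at P8 (x axis, percent) for each class of collagen (y axis), with points for the share, bars for the Wilson 95% interval and a dashed line for all genes, in the full lists (left) and in lists cut to equal length (right). In the full lists type IX and XI collagens lie lowest at 17.4% and type VI highest at 60%, around 31.7% for all genes, and the same pair is at 14.3% and 50% in lists of equal length.

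The classes differed in how many of their P2 regions were lost, although their intervals overlapped in part, as the plot of losses by class shows. Type IX and XI collagens lost 17.4% of P2 regions (6.98 to 37.1), below the 31.7% of all genes, although the interval holds that value. Basement membrane collagens lost 40.0% (24.6 to 57.7), fibrillar collagens 41.4% (29.6 to 54.2) and transmembrane collagens 42.5% (28.5 to 57.8), and each of these intervals holds it too. The remaining collagens lost 56.3% (45.3 to 66.6) and type VI collagens 60.0% (40.7 to 76.6). The intervals of the last pair lay above the value for all genes, and the interval for types IX and XI did not reach that of type VI. With lists of equal length the intervals of that pair overlapped, at 4.98 to 34.6 and 29.9 to 70.1. The shares were then 14.3% for types IX and XI, 29.2% for basement membrane, 31.0% for transmembrane, 40.0% for fibrillar, 49.2% for the remaining and 50.0% for type VI collagens, beside 24.1% over all genes.

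**Figure D2:**
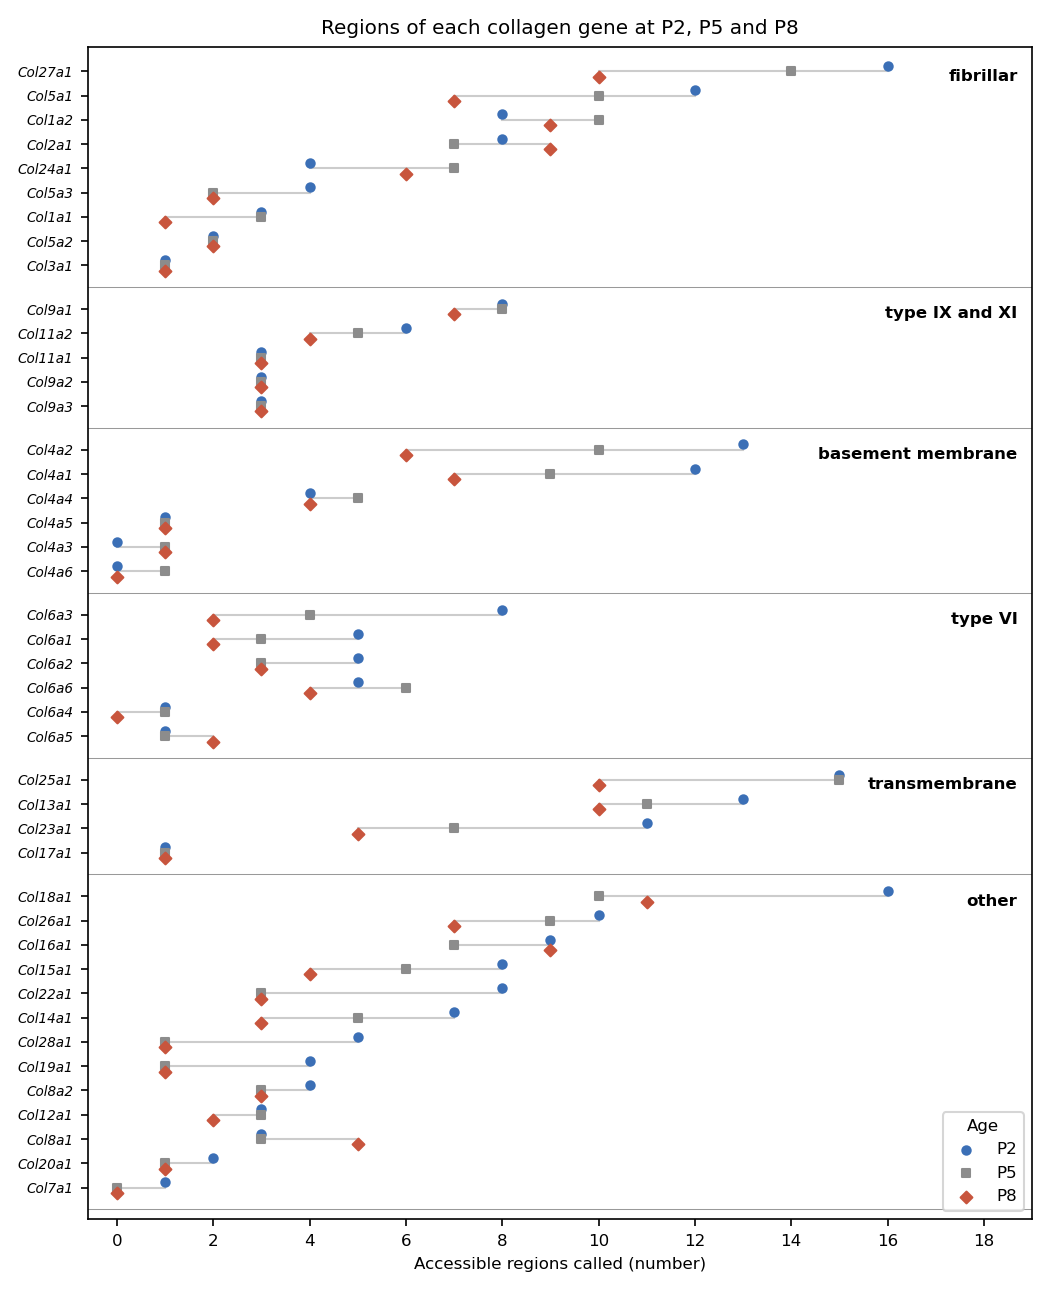
Number of open regions (x axis) of each collagen gene (y axis, grouped by class) called at P2, P5 and P8, with 1 point per age. Points for P8 lie left of those for P2 in most genes, for example 16 and 10 for Col27a1, while Col9a2, Col9a3 and Col11a1 stay at 3.

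Fibrillar collagens had 58, 56 and 47 regions, with 24 lost and 13 gained from P2 to P8. Gains made up 35.1% of their changes (21.8 to 51.2), beside 33.5% over all genes, and of the 9 genes 4 had a net loss, 3 a net gain and 2 equal numbers. Col1a1 and Col1a2 encode the chains of type I collagen, the main fibril of bone and connective tissue. Col1a1 had 3, 3 and 1 regions. Col1a2 had 8, 10 and 9, with 3 gained and 2 lost, and of all its regions 10 lay outside the gene and 2 inside. Its gained regions lay 48549 and 21555 bp outside the gene and, at P8 percentile 9.78, inside it. The lost ones lay nearer, 16822 and 16062 bp outside, so the net gain of Col1a2 rested on distant regions. The region over the Col1a2 start, which on build mm10 is chr6:4505290-4505865 counted from 1, was called at each age, at within-list percentiles of 67.3, 70.0 and 76.0, where 100 is the highest ranking value of a list.

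Col2a1, the fibril of cartilage and of the tectorial membrane, had 8, 7 and 9 regions, with 3 gained and 2 lost. Its strongest region at P2, chr15:98004370-98004982, within 1 kb of a gene end, stood at percentiles 83.0, 72.9 and 76.7. Col24a1, a fibrillar collagen of bone, had 4, 7 and 6 regions, with 4 gained and 2 lost. The gained region, chr3:145457074-145457572, inside Col24a1, had the highest P8 percentile of any gained fibrillar region, 46.2. Among regions within 20 kb, Col24a1 had 2 gained and 2 lost, so its net gain came from regions farther away. With the limit of 100 kb, Col24a1, Col1a2 and Col2a1 were the fibrillar genes with a net gain.

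The other large fibrillar loci had net losses. Col27a1, a cartilage fibrillar collagen, had 16, 14 and 10 regions, with 7 lost and 1 gained. Col5a1, a chain that nucleates type I fibrils, had 12, 10 and 7, with 7 lost and 2 gained. The lost Col5a1 region chr2:27862549-27863047, 23334 bp outside the gene, had the highest P2 percentile of all lost collagen regions, 66.3. Col5a3 had 4, 2 and 2 regions, yet its kept region chr9:20794158-20794659, inside the gene, stood among the highest of its class at 87.9, 93.8 and 90.0. The neighbouring genes Col3a1 and Col5a2 together had 3 regions at each age. Both Col5a2 regions were called at every age, while the region at the Col3a1 start was called at P2 and P8 (percentiles 23.2 and 3.2) and another inside Col3a1 at P5 alone (30.2).

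Type IX and XI collagens, which decorate and nucleate type II fibrils, had 23, 22 and 20 regions, with 4 lost, 1 gained and 19 kept. No region of this class was called at P2 alone. Col9a2 and Col9a3 had 3 regions each, all called at every age. Col9a1 had 8, 8 and 7, its neighbour Col19a1, a collagen of another class, had 4, 1 and 1, and Col11a1 had 3, 3 and 3. The region over the Col11a1 start, chr3:114030193-114030704, had the highest P8 percentile of the class, with 94.4, 95.2 and 94.0.

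At Col11a2, 3 of the 4 changed regions lay near the start. The gene had 6, 5 and 4 regions. The region chr17:34038429-34038967, just before the start, was called at P2 and P5 at percentiles 41.9 and 30.1. At P8 it was not called, and the adjacent region chr17:34039110-34039608, over the start, was, at 59.0. A further region, chr17:34039997-34040496, was called at P2 (64.2) and P5 (39.6) only. The last lost region, chr17:34077508-34078007, lay 10824 bp outside the gene and was called at P2 (2.9) and P5 (37.0). The lost and gained regions at the start therefore describe peaks at neighbouring positions, with no overlap of at least 1 bp. Over all collagens, 7 of the 117 lost regions (5.98%) had a P8 region within 1 kb, beside 5.32% over all genes, and 4 of the 36 gained regions (11.1%) had a P2 region within that distance, beside 6.20%.

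Basement membrane collagens had 30, 27 and 19 regions, with 12 lost, 1 gained and 18 kept. All 12 losses lay at Col4a1 and Col4a2, which encode the chains of the common type IV network and are transcribed away from each other from a shared start on chromosome 8. Col4a1 had 12, 9 and 7 regions and Col4a2 had 13, 10 and 6. Of their 26 regions, 13 were kept, 12 lost and 0 gained. With lists of equal length Col4a1 had 3 lost and 0 gained, and Col4a2 had 4 lost and 1 gained. Among regions within 20 kb, Col4a1 had 3 lost and Col4a2 had 7. The region over the shared start, chr8:11312561-11313105, was called at P2 (percentile 60.4) and P8 (36.2) and not at P5. The strongest lost region of the pair was chr8:11399742-11400253 inside Col4a2, at 58.5 at P2 and 23.5 at P5.

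The type IV chains of specialised basement membranes, including that of strial capillaries and kidney, had few regions and no losses. Col4a4 had 4, 5 and 4 regions, Col4a3 had 0, 1 and 1, Col4a5 had 1 at each age and Col4a6 had 1 at P5 alone. The ends of Col4a3 and Col4a4 overlap by 114 bp, and the region over this overlap, chr1:82586600-82587102, was counted for Col4a4 only. It was called at every age, at 30.0, 40.1 and 66.5, so an end of Col4a3 was also called at P2. The Col4a4 region chr1:82476667-82477236, inside the gene, stood at 87.7, 92.6 and 86.1. Mutations in Col4a3, Col4a4 and Col4a5 cause the kidney and hearing disease Alport syndrome. Endothelial and pericyte markers, genes of cells that rest on type IV collagen, had 24, 15 and 17 regions, with 10 lost and 3 gained. The losses were 41.7% of their P2 regions (24.5 to 61.2), an interval that holds the 31.7% of all genes. The part of these markers in the Col4a1 and Col4a2 counts was not tested.

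**Figure D3:**
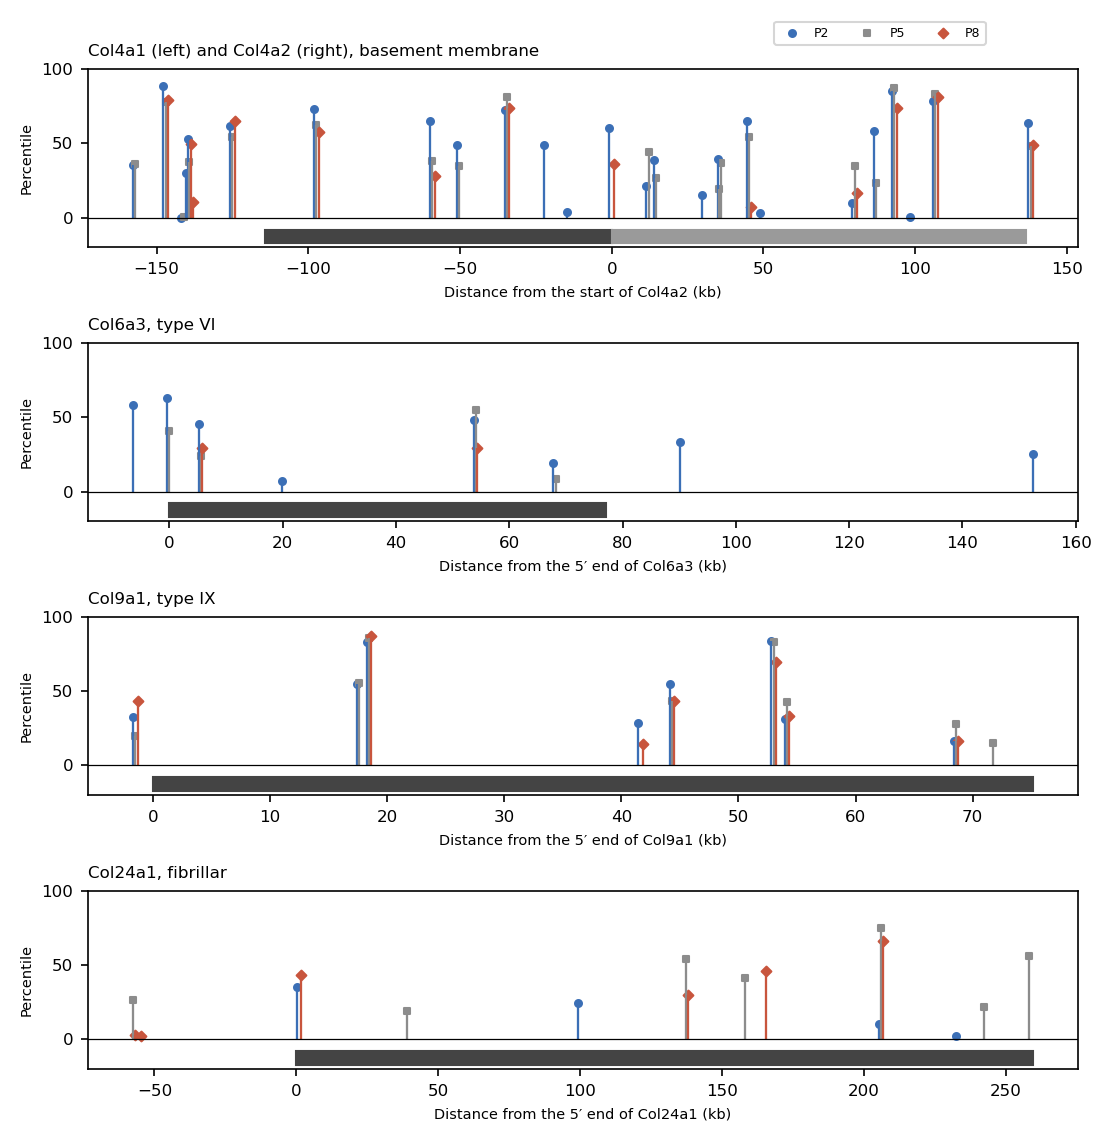
Open regions along Col4a1 with Col4a2, Col6a3, Col9a1 and Col24a1, with the distance from a gene start in kb on the x axis, the within-list percentile on the y axis, a marker for each region at each age it was called, and gene bodies as bars. At Col4a1 and Col4a2 25 regions are called at P2 and 13 at P8.

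Type VI collagens, the filaments that link cells to the matrix around them, had 25, 18 and 13 regions, with 15 lost, 3 gained and 10 kept. Of the 6 genes 5 had a net loss. Col6a3 had 8, 4 and 2 regions, and its start region chr1:90843750-90844299 was called at P2 (62.6) and P5 (40.9) but not at P8. The neighbours Col6a1 and Col6a2, 85161 bp apart, together had 10, 6 and 5 regions, with 6 lost and 1 gained. Col6a1 had 0 regions inside the gene and Col6a2 had 1. Among regions within 20 kb, Col6a1 had 1 lost, and Col6a2 had 2 lost and 1 gained. In the whole class 48.3% of regions (31.4 to 65.6) lay inside the gene, beside 76.6% over all collagens. The start region of Col6a2, chr10:76623187-76623702, was called at every age, at 86.0, 84.3 and 81.5. Col6a6 had 5, 6 and 4 regions and lost chr9:105774817-105775320, which stood at 64.5 at P2 and 53.1 at P5. Its neighbours Col6a5 and Col6a4 had 1, 1 and 2 regions and 1, 1 and 0, so that Col6a5 alone in the class had a net gain. The gained Col6a5 region, over the start, stood at P8 percentile 8.18.

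Transmembrane collagens had 40, 34 and 26 regions, with 17 lost, 3 gained and 23 kept. Col25a1, known from motor innervation and from amyloid plaques, had 15, 15 and 10 regions, with 7 lost and 2 gained. When regions were given to the nearest gene end, it had 2 lost and 2 gained, and with lists of equal length 4 lost and 3 gained. Col13a1, a collagen of the neuromuscular synapse, had 13, 11 and 10, and Col23a1 had 11, 7 and 5. The Col23a1 region chr11:51539512-51540025, inside the gene, was the highest-ranked kept region of the class, at 88.2, 87.5 and 89.0. With lists of equal length, Col23a1 had 2 gains and 2 losses in place of 0 and 6. Col17a1, a hemidesmosome collagen, had 1 region, called at every age. Marker genes of neurons and glia had 40, 26 and 25 regions, with 17 lost (42.5% of P2 regions, 28.5 to 57.8) and 2 gained. Those of skeletal muscle had 6, 3 and 3, with 3 lost (50%, 18.8 to 81.2). Both intervals hold the 31.7% of all genes, and the part of these markers in the transmembrane counts was not tested.

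The 14 remaining collagens had 80, 52 and 50 regions, with 45 lost and 15 gained. Of the 45 lost, 33 were called at P2 alone and 12 at P2 and P5. Counted by step, 37 regions were lost from P2 to P5, some of which were called again at P8. They were 41.6% of those called at either age, beside 20.8% over all genes. From P5 to P8 16 were lost, some of them called at P5 alone, or 24.2%, beside 18.8%. Regions called at P2 alone made up 33.3% of this class, beside 15.8% over all genes. Col18a1 and Col15a1, the basement membrane zone collagens that yield endostatin and a like fragment, had 16, 10 and 11 and 8, 6 and 4 regions. Col14a1, which binds the surface of type I fibrils, had 7, 5 and 3, and Col22a1, a collagen of tissue junctions, 8, 3 and 3. Col28a1 had 5, 1 and 1 regions, Col19a1 had 4, 1 and 1, and Col26a1 had 10, 9 and 7. Col16a1 had 9, 7 and 9 regions, with 3 gained and 3 lost. Col8a1, a short-chain collagen of vessels and of the corneal basement membrane, alone in this class had a net gain, from 3 regions at P2 and P5 to 5 at P8. Its gained regions stood at P8 percentiles of 39.6, 22.9 and 3.24.

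The kept region of this class with the highest P8 percentile was chr10:77151060-77151567 at Col18a1, at 72.2, 78.2 and 80.1. The gained Col15a1 region chr4:47293843-47294350 was called at P5 (42.9) and P8 (63.1), and the lost Col16a1 region chr4:130055864-130056362 at P2 alone (62.3). For Col14a1 all peaks gave 5 losses and 1 gain. With only regions that stood in the upper 50% of the list in which they were called, there were 0 losses and 1 gain. That change of direction rests on 1 region, at P8 percentile 57.6. The highest-ranked lost Col14a1 region stood just below the cutoff, at P2 percentile 49.0. The other members were Col7a1, Col8a2, Col12a1 and Col20a1, each with a net loss of 1 region, and Col10a1 with none.

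Starts of collagen genes were examined in the 250 bases before to 50 bases after each start in a RefSeq promoter table of build GRCm38.p6, the same build as mm10. It held 38 windows for 35 of the 44 members. A region overlapped 20 windows by at least 1 bp at P2 (52.6%), 14 at P5 (36.8%) and 18 at P8 (47.4%), beside 39.2%, 36.9% and 36.6% of all 32851 windows in the table. At all 3 ages 12 collagen windows were called (31.6%, beside 34.8%), 15 at none (39.5%, beside 59.5%) and 11 at some. The Col11a2 window is among the 12 through 2 regions, 1 called at P2 and P5 and the other at P8. Both Col6a2 windows among the 12 overlap the same region. Windows called at P2 and P8 but not P5 were those of Col3a1, Col4a1 and Col4a2. Those called at P2 alone belonged to Col5a3 (percentile 32.4) and both starts of Col18a1 (36.5 and 39.3). Those called at P8 alone belonged to Col8a1, Col15a1 and Col6a5, all near the bottom of the P8 list, at percentiles 3.24, 6.31 and 8.18. At P2 and P5 the windows of Col6a3 and the inner start of Col9a1 were called. No collagen window was called at P5 without P2.

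**Figure D4:**
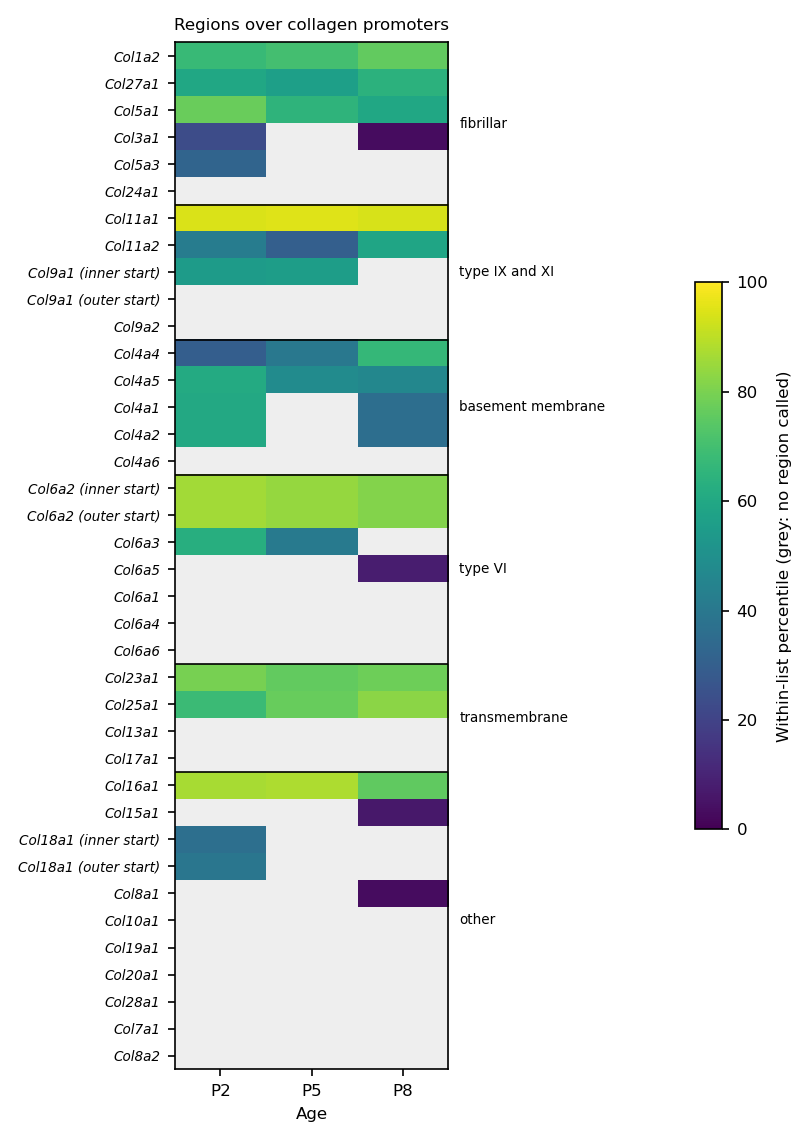
Within-list percentile (colour) of the region over each collagen promoter window (y axis, by class) at P2, P5 and P8 (x axis), with grey where no region was called. The Col11a1 window lies between 94.0 and 95.2 over the ages, and 15 of 38 windows are grey throughout.

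Promoter sequences are shown for members called at every age and for members called at some ages, to set the letters of both kinds of start side by side. Each is the part of the 250 bases before the start that lies outside the annotated gene, 5′ to 3′ on the strand of the gene. Capitals mark short motifs on either strand, the GC box with letters GGGCGG and the binding letters of NF-Y, which are CCAAT. The first 3 were called at each age.
Col11a1, chr3:114030290-114030478, plus strand: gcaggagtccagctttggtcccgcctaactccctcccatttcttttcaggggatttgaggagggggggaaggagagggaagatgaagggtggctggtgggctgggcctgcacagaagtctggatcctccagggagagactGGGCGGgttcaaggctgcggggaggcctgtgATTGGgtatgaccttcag
Col16a1, chr4:130047590-130047816, plus strand: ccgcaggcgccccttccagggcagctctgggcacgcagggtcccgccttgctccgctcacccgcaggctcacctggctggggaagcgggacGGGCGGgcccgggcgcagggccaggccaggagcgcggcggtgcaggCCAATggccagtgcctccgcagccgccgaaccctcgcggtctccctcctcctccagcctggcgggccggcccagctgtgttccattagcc
Col1a2, chr6:4505368-4505617, plus strand: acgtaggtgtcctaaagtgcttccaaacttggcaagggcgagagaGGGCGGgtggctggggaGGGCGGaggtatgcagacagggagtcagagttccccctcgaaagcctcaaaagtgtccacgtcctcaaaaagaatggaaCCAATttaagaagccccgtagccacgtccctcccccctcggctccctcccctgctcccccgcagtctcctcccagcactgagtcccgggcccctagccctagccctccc

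The next 5 were called at some ages only, Col3a1 at P2 and P8, Col5a3 and Col18a1 at P2, Col6a3 at P2 and P5, and Col8a1 at P8.
Col3a1, chr1:45311288-45311537, plus strand: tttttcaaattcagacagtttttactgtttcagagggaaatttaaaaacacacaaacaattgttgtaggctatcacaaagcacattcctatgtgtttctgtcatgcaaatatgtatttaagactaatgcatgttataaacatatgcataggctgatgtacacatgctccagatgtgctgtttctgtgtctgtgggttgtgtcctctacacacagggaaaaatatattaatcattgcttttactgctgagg
Col5a3, chr9:20815118-20815317, minus strand: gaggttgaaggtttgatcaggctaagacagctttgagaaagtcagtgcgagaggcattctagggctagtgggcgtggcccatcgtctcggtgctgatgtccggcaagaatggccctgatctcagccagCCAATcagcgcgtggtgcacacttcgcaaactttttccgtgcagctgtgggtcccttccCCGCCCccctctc
Col18a1, chr10:77166531-77166780, minus strand: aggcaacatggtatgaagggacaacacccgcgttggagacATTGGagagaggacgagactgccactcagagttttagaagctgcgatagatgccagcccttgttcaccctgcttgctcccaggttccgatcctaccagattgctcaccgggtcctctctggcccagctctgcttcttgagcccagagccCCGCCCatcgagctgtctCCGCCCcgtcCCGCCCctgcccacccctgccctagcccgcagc
Col6a3, chr1:90844002-90844221, minus strand: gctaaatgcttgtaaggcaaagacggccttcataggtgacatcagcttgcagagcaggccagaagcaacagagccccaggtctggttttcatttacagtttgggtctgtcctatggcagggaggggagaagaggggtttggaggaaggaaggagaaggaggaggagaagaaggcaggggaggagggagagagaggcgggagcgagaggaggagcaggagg
Col8a1, chr16:57754738-57754987, minus strand: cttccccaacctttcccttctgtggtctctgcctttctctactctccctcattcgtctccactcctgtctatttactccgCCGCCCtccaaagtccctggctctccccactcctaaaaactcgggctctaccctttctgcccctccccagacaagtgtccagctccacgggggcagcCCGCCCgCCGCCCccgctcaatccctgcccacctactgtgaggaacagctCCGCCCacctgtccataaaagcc

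The printed Col3a1 stretch has a GC content of 35.2% and 0 CpG, and holds neither motif. Those of Col11a1, Col16a1 and Col1a2, called at each age, hold 3, 21 and 11 CpG. Those of Col5a3, Col18a1, Col6a3 and Col8a1, called at some ages, hold 10, 12, 3 and 10, so the numbers of both kinds of start overlap. The printed Col8a1 stretch holds 4 GC boxes and was called at P8 alone, at percentile 3.24, and that of Col6a3 holds none. Over all 38 collagen windows, searched on both strands in the 250 bases before the start, GGGCGG was found in 22 (57.9%, beside 32.7% of all promoters). It was found in 11 of the 12 windows called at all ages (91.7%, beside 63.2% of all promoters called at all ages) and in 6 of the 15 never called (40%, beside 14.0%). CCAAT was found in 34.2%, beside 33.8%, and TATAAA in 13.2%, beside 12.4%. ACAAT, the core letters that Sox factors bind, was found in 5.26%, beside 27.7%, and TGACTCA or TGAGTCA, the letters of AP-1, in 2.63%, beside 4.46%. No matches of different motifs overlapped in the collagen windows. The median number of CpG was 9.5, beside 6.

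Most collagen regions lay away from gene ends. Only 15.6% (12.1 to 20.0) had their middle within 1 kb of the start or end of an annotated gene, beside 27.2% of all regions near a gene, and 76.6% lay inside the gene, beside 67.1%. Among kept regions the share near a gene end was 16.5% for collagens and 38.0% for all genes. Among lost regions it was 12.8% and 16.2%, and among gained regions 27.8% (15.8 to 44.0) and 11.1%. Where the strand was known, regions inside collagen genes were placed along the gene. Of the 70 lost regions 42.9% (31.9 to 54.5) lay in the first 25% of the gene, against 28.3% (20.1 to 38.2) of the 92 kept ones. These intervals overlap. In genes of at least 10 kb over the whole table the order was the other way round, with 28.2% of lost and 52.2% of kept regions there. At the gene ends, 26 of the 44 members (59.1%) had a region within 1 kb of an end at P2, 21 (47.7%) at P5 and 24 (54.5%) at P8, beside 57.6%, 54.1% and 53.6% of all genes.

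**Figure D5:**
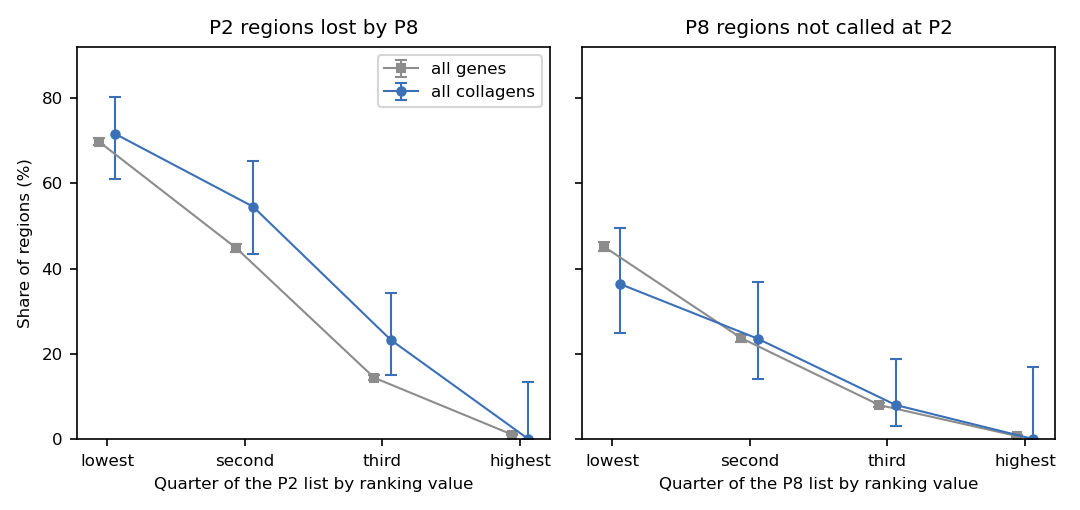
Share of P2 regions not called at P8 (left) and of P8 regions not called at P2 (right), in percent on the y axis, by 25% band of the list from the lowest to the highest ranking value (x axis), for collagens and all genes, with Wilson 95% intervals as bars. Shares drop with rank, and between percentiles 50 and 75 the loss is 23.3% for collagens and 14.4% for all genes.

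Collagen regions also ranked lower than most at P2, and low-ranked regions were lost more often. Their median percentile at P2 was 39.2, beside 51.3 over all genes, and 9.77% of them, or 25, stood above percentile 75, beside 26.4%. In the lowest band of P2 percentiles, up to 25, 71.6% of the collagen regions and 69.8% of all regions were lost. Between 25 and 50 the shares were 54.5% (43.5 to 65.2) and 44.8%, and between 50 and 75 they were 23.3% (15.1 to 34.2) and 14.4%. Above 75, 0 of 25 collagen regions were lost (interval up to 13.3%), beside 1.07%. Had each band of collagen regions been lost at the share of all genes, 101.8 losses would have been counted in place of 117. The same sum was 9.5 for the 15 losses of type VI, 36.5 for the 45 of the remaining collagens, 10.4 for the 12 of basement membrane collagens, and 21.3 for the 24 of fibrillar collagens. It was 17.1 for the 17 of transmembrane collagens and 6.9 for the 4 of types IX and XI. Lost collagen regions had a median P2 percentile of 25.0 and kept ones 54.6. Gained regions had a median P8 percentile of 21.7 and reached at most 63.1. In the bands of the P8 list from low to high, 36.4%, 23.5%, 8% and 0% of collagen regions were gained, beside 45.2%, 23.7%, 8.00% and 0.721% over all genes.

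The genes that make, process and bind collagen were followed as 6 lists. All 62 matched the gene table and 55 had regions, which numbered 243, 227 and 210, with 77 lost and 44 gained. The losses were 31.7% of their P2 regions (26.2 to 37.8), the same share as over all genes. A net loss was found in 19 genes, a net gain in 11 and neither in 25. Enzymes and chaperones of hydroxylation and folding had 51, 48 and 47 regions, and P4ha3, a prolyl hydroxylase subunit, was the 1 member with a net change of at least 2 regions from P2 to P8, with 4, 3 and 1. Secretion genes had 33, 32 and 30, and Creb3l2, a transcription factor of the secretory pathway, had 15, 12 and 10.

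Propeptide cleavage, which trims procollagen so that fibrils can assemble, had the most P2 regions and the largest net loss in number of the 6 lists. Its genes had 63, 52 and 41 regions, with 26 lost and 4 gained, and 41.3% of its P2 regions lost (30.0 to 53.6), an interval that holds the 31.7% of all genes. Adamts2, the main procollagen N-proteinase, had 20, 13 and 11 regions, with 9 lost and 0 gained. Tll2 had 13, 10 and 6, Tll1 had 3, 3 and 0, and Adamts14 had 11, 8 and 8. Cross-linking enzymes had 14, 15 and 19 regions, 7 gained and 2 lost, or 14.3% of P2 regions lost (4.01 to 39.9), an interval that also holds that share. Loxl1, a lysyl oxidase, accounted for 4 of these gains, with 7, 7 and 10 regions. Lox itself had 2, 1 and 3.

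Receptors and uptake genes had 45, 43 and 45 regions, with 14 gained and 14 lost. Of these changes 7 gains and 8 losses lay at Itga11, a collagen-binding integrin chain, which had 10, 10 and 9 regions. The discoidin receptors Ddr1 and Ddr2, tyrosine kinases activated by collagen, had 7, 7 and 9 and 6, 5 and 8 regions, while the integrin chain Itga1 had 7, 6 and 5. Proteins that bind fibrils had 37, 37 and 28 regions, with 15 lost (40.5% of P2 regions, 26.3 to 56.5) and 6 gained. Matn1, a cartilage matrilin, had 6, 5 and 2, and Prelp had 7, 4 and 5.

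Lists of cell type markers were counted in the same way, and shares lost are of P2 regions, beside 31.7% over all genes. Chondrocyte markers had 64, 59 and 56 regions, with 22 lost (34.4%, 23.9 to 46.6) and 14 gained. Osteoblast markers had 34, 36 and 51, with 4 lost (11.8%, 4.67 to 26.6) and 21 gained, and 9 of the 10 genes had a net gain, beside 13.9% of all genes. Fibrocyte and otic mesenchyme markers had 41, 30 and 31, with 15 lost (36.6%, 23.6 to 51.9) and 5 gained. The stria vascularis markers had 19 lost (45.2%, 31.2 to 60.1) and 5 gained, and those of sensory and supporting cells 14 lost (42.4%, 27.2 to 59.2) and 6 gained. Of these lists, the interval of the osteoblast markers lay below the share of all genes, and those of the chondrocyte, fibrocyte, stria and sensory lists held it. Macrophage and blood markers had 4, 7 and 6 regions, with 1 lost and 3 gained. Of the genes of type I collagen, which osteoblasts secrete, Col1a1 had 2 losses and 0 gains and Col1a2 3 gains and 2 losses. The Col1a2 gains included regions 48549 and 21555 bp outside the gene. The part of these cell types in the collagen counts was not tested.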

How the data were processed

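Per the submitters' processing notes, the authors used MACS2 2.1.0, Subread 1.4.6-p3 and Trimmomatic 0.33, with build mm10. The deposited lists, 1 per age, have the columns of an IDR (irreproducible discovery rate) output. The authors' ranking value in the deposited lists is on a −log10 p-value scale, and served here only to rank the peaks of 1 age. The scaled IDR score in the deposited lists enters no result. The authors' IDR is at most 0.05 in each list. Read shifting, filtering, pooling and the animals behind the IDR inputs are not given in the sources used here.

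Regions were merged, assigned to genes of RefSeq GRCm38.p6 (the mm10 build) and compared with Python 3.11.15, pandas 2.3.3, NumPy 2.4.6, SciPy 1.17.1 and matplotlib 3.10.9. Positions are counted from 1, with starts in the lists read as counted from 0. Where 2 gene bodies tied, the region went to the body nearer to its middle, then to the nearer gene end. The merging and counting were tested on simulated lists of well separated sites and genes, which did not cover adjacent peaks or overlapping gene bodies. Named members were the 2 of each class with the most regions, those with a net change of at least 2, and neighbours that share a start or gene end. Named regions were the highest-ranked kept, gained and lost region of each class. Members named beside these were chosen after their values were seen. The members, classes and lists were chosen with earlier results of these data known. The gene table has no exons, so exon and intron positions were not used here.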

Additional observations from a re-analysis of the deposited data

How the results depend on the processing

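Alternatives were lists of equal length, only the upper 50% of a list, an IDR of at most 0.01, changes that P5 supports, a 50% overlap rule, other ways of assigning genes, and 500 bp or 2 kb for a gene end. Of 92 alternative values for the collagen totals, classes, gene counts and gene ends, 79 stayed within the 95% interval of the share as reported, or within 1.5 times a count, and 13 did not. No share of gains crossed 50%. These intervals are wide for small classes. With lists of equal length the gain share of basement membrane collagens went from 7.69% to 22.2% and that of types IX and XI from 20% to 40%, and with an IDR of at most 0.01 that of type VI went from 16.7% to 7.69% and that of basement membrane collagens to 16.7%. Gains as a share of all changes from P2 to P8 went from 23.5% to 37.5% with lists of equal length (49.3% over all genes), from P2 to P5 from 31.5% to 42.7%, and for transmembrane collagens from 15% to 40%. With the upper 50% of a list, fibrillar, basement membrane, type VI and transmembrane collagens had a gain share of 0%, from 0 gains and 6, 1, 3 and 1 losses, and the remaining collagens 42.9%, from 3 gains and 4 losses. That setting left 1 gene with a net gain and 10 with a net loss, and an IDR of at most 0.01 left 3 with a net gain. Among changes that P5 supports, types IX and XI and the transmembrane collagens had a gain share of 0%, from 4 and 6 losses. For the 33 named genes, 173 alternative values of the net change kept its sign and stayed within 1.5 times it, 90 did not and 1 reversed. The reversal was Col14a1, which went from a net −4 to 1 when only regions in the upper 50% of their list counted. The same setting gave a net 0 for more genes than any other, among them Col1a1, Col4a1, Col8a1, Col22a1, Col24a1, Col25a1 and Col28a1. Changes that P5 supports gave a net 0 for Col14a1, Col19a1, Col28a1, Col6a5 and Col6a6. Lists of equal length gave a net 0 for Col23a1, Col26a1 and Col6a2, an IDR of at most 0.01 for Col26a1, Col6a2, Col6a5 and Col9a1, the nearest gene end for Col25a1 and Col4a3, every gene within 50 kb for Col24a1, Col6a4 and Col6a5, and a limit of 20 kb for Col24a1. No paired analysis was possible because each age has 1 list, and leaving out an animal could not be run for the same reason. Without read counts, a region not called may be open below the cutoff of its list.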
